A study of Mus musculus with 20 samples.

Results

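Smooth muscle and gut motility genes were followed through 5 mouse tissues with and without the RNA methyltransferase Nsun6. The set holds 32 genes out of the 55401 genes counted. They were chosen by name for their roles in contraction, its regulation and gut pacemaking, with earlier results of these data known. Each name matched exactly 1 gene.

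Smooth muscle of the gut wall contracts when calcium entering through L-type channels binds calmodulin and switches on myosin light chain kinase, which lets smooth muscle myosin pull on actin. Myosin phosphatase reverses the step, potassium channels and muscarinic receptors tune it, and interstitial cells of Cajal set the rhythm of slow waves. Many of these genes are switched on by serum response factor with its cofactor myocardin at a DNA element named the CArG box.

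The groups were WT and Nsun6-KO small intestine, liver, spleen, kidney and heart, with 2 libraries each and 20 in all. Nsun6 installs 5-methylcytosine on RNA, and the KO strain, made by CRISPR/Cas9 in fertilized C57BL/6J eggs, lacks exons 3 and 4 of the gene in every cell; for the mice used for RNA-seq, no other allele or treatment was described. Tissues came from female mice 8 weeks of age and were ground whole, so muscle, epithelium, nerves and vessels were measured together. Libraries held 15897446 to 44508197 counts (median 28513950). Replicates are described as biological; nothing states whether libraries of different tissues came from the same animals. The p-values measure the spread between these libraries, which in the small intestine includes the difference in gut position described below.

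Levels are given as CPM, the counts of a gene scaled to library size with trimmed mean of M-values (TMM) factors. The targeted gene, Nsun6, stood at 9.67 and 6.09 CPM in WT small intestine (replicates 1 and 2) and at 9.13 and 5.09 CPM in KO. In liver it was at 4.68 and 3.18 CPM in WT and 2.67 and 2.92 CPM in KO, and in spleen at 8.77 and 6.59 CPM in WT and 5.99 and 10.3 CPM in KO. In kidney it was at 6.32 and 6.55 CPM in WT and 4.38 and 3.71 CPM in KO, and in heart at 6.62 and 6.27 CPM in WT and 5.57 and 5.11 CPM in KO. WT lay above KO without overlap in liver, kidney and heart, and the genotypes overlapped in small intestine and spleen. A count over all exons of a gene that lacks 2 of them is a weak check of the genotype labels.

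The 4 small intestine libraries fell into position pairs that the genotype labels do not give. Distal markers, led by the ileal bile acid-binding protein Fabp6, summed to 10500 CPM in WT replicate 1 and 11000 CPM in KO replicate 1. The same markers summed to 310 CPM in WT replicate 2 and 301 CPM in KO replicate 2. Proximal markers, led by Fabp1, ran the other way, at 176, 10400, 239 and 13100 CPM in WT replicates 1 and 2 and KO replicates 1 and 2. Folds of KO over WT were therefore also taken within the distal-marker pair (replicate 1) and within the proximal-marker pair (replicate 2). Each such fold compares 1 library with 1 library, without a test.

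Sequences just before the start sites are shown because all members had a higher mean in KO small intestine and many are known CArG genes. RefSeq promoters (GRCm38.p6) matched 27 of the 32 genes and held 34 start sites for them; Myh11, Myocd, Actg2, Tagln and Nexn were not matched. The 250 bases before each start were searched for the CArG box, which is CC, then 6 bases that are each A or T, then GG, and which reads as the same pattern on both strands. An exact match stood before 1 member, Myl9, against 1.62% of all genes with such a window. With at most 1 mismatch, 11 of 27 members held a match, against 21.1% of all genes. Since many members are known CArG genes, these counts can follow from how the set was chosen. They do not bear on the difference between KO and WT. Matched stretches with 10 flanking bases on each side follow, with the match in capitals. Myl9, the regulatory light chain, is at chr2:156775293-156775322 and chr2:156775355-156775384 (plus strand); Acta2, smooth muscle alpha-actin, at chr19:34255438-34255467 and chr19:34255388-34255417 (minus strand); Tpm1, tropomyosin 1, at chr9:67049415-67049444 and chr9:67049274-67049303 (minus strand). Of the 250 bases before these starts, 217 lie in annotated exons for Acta2, 193 for Tpm1 and 44 for Myl9.

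Myl9 exact: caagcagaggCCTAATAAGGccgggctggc
Myl9 second: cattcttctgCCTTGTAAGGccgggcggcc
Acta2 upstream: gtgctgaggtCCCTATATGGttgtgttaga
Acta2 nearer: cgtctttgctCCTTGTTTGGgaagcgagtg
Tpm1 upstream: gctcgggtccCCATATATAGtcatatccac
Tpm1 nearer: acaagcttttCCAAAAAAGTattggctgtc

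Whole windows are given for Lmod1 (leiomodin 1, which nucleates actin filaments; chr1:135324563-135324812, plus strand), with its pair of near matches in capitals, and for Des (the intermediate filament desmin; chr1:75360042-75360291, plus strand) and Kcnmb1 (the beta subunit of the calcium-activated potassium channel; chr11:33962763-33963012, plus strand). The latter pair were among the members with the largest fold changes and held no match.

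Lmod1: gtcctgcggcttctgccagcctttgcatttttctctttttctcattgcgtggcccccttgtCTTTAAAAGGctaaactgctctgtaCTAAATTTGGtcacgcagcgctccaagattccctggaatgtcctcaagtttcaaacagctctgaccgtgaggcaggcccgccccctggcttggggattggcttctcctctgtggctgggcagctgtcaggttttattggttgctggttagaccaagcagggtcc
Des: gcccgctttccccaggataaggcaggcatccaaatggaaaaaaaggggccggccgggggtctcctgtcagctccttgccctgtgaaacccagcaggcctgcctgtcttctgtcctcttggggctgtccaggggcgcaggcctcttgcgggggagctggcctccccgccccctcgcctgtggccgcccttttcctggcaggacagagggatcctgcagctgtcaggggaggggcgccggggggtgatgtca
Kcnmb1: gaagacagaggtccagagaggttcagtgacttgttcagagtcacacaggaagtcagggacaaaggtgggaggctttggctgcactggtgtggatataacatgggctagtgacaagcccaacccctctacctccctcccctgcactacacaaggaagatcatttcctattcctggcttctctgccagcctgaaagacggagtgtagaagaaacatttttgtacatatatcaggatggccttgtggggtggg

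Whether Nsun6 loss changed the contractile programme of the gut was asked by comparing KO with WT small intestine. All 32 members had a higher mean in KO, with fold changes from 1.76 for Chrm3 to 6.46 for Actg2 and a median of 3.44 (log2 1.78, against 0 over all 17680 genes tested). Both KO libraries lay above both WT libraries for 30 of 32 members, against 13.6% of all genes tested. None was called by edgeR's quasi-likelihood test at an adjusted p under 0.1 and a fold over 2, where 0% of all genes were called. At an unadjusted p under 0.05, 24 of 32 members were higher in KO, against 1.77% of all genes, and 30 had a log2 fold change over 1, against 8.06% of all genes. DESeq2, run as the alternative, called 6 members higher, against 0.236% of all genes. The members were chosen with earlier results of these data known. They also moved together over these 4 libraries, with a median Pearson's r of 0.982 with their own mean. The shares above therefore describe the set, and the 32 genes are not 32 separate observations. In these bulk tissues, more cells of a type and more RNA per cell cannot be told apart.

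**Figure D1:**
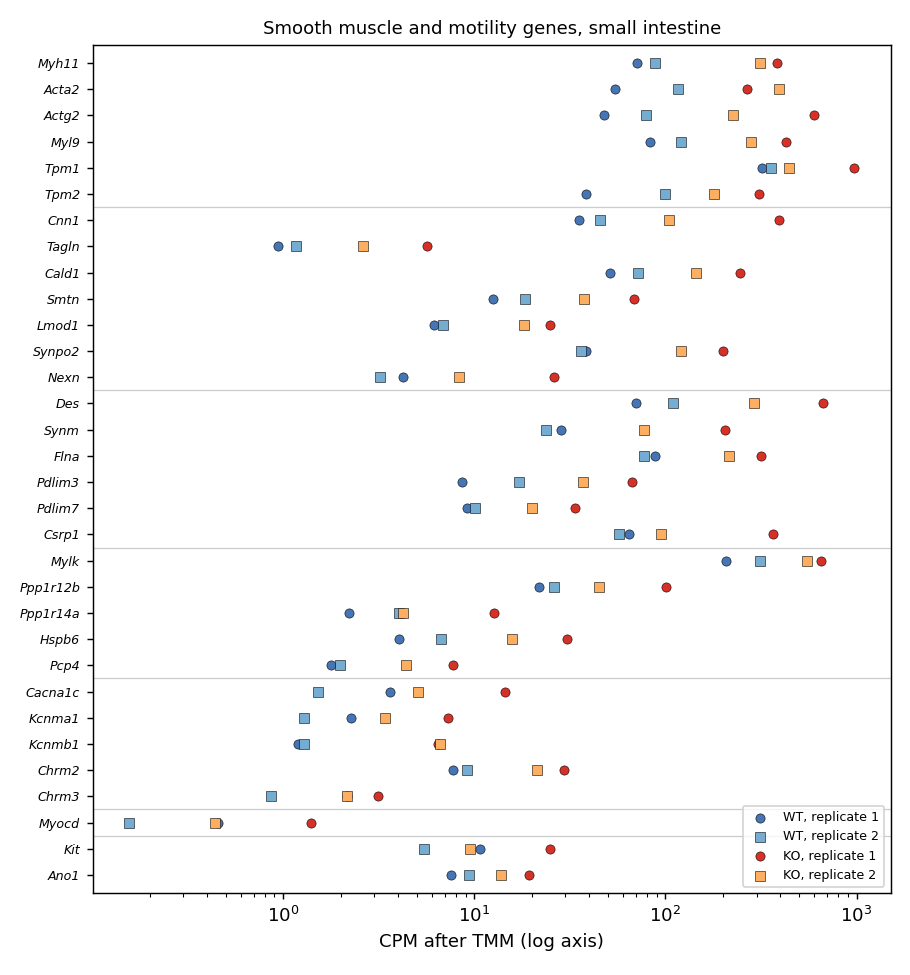
Level of each of the 32 members in the 4 small intestine libraries, in CPM after TMM on a log axis; circles are replicate 1, squares replicate 2, blue WT and red or orange KO, and grey lines part the functional groups. Red and orange points lie to the right of both blue points for 30 of 32 genes.

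All 6 members of the contractile filament had a higher mean in KO, and the median of their log2 fold changes was 1.89. Myh11, smooth muscle myosin heavy chain (chr16:14194535-14291372, minus strand), stood at 71.1 and 87.8 CPM in WT and at 385 and 313 CPM in KO. Both KO libraries lay far above both WT libraries, and the log2 fold change was 2.13 with a standard error of 0.35. Its unadjusted p in edgeR's quasi-likelihood test, 0.00263, was the smallest of the set, and its adjusted p was 1. DESeq2's adjusted p for Myh11 was 0.0133.

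Actg2, the gamma-actin of gut muscle (chr6:83512905-83536265, minus strand), stood at 47.7 and 79.6 CPM in WT and at 598 and 225 CPM in KO. KO replicate 1 was far above KO replicate 2, and the log2 fold change of 2.69 with a standard error of 0.65 was the highest among the members but dropped to 1.83 without KO replicate 1. Acta2, the alpha-actin also found in vessels, stood at 54.4 and 116 CPM in WT and at 267 and 395 CPM in KO, with a log2 fold change of 1.95, or 2.60 without WT replicate 2. Here KO replicate 2 was the higher, one of only 2 members, with Kcnmb1, for which this was so.

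Myl9, the light chain that the kinase phosphorylates, stood at 83.5 and 121 CPM in WT and at 426 and 282 CPM in KO (log2 fold change 1.79, standard error 0.42). The tropomyosins, which lie along the actin filament, differed in size: Tpm2 had a log2 fold change of 1.83 and Tpm1 one of 1.06. Tpm1 was at 320 and 359 CPM in WT and at 973 and 442 CPM in KO, so its KO replicate 2 was close to WT. Without KO replicate 1 the log2 value for Tpm1 was 0.39, and without WT replicate 2 that for Tpm2 was 2.66.

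Thin filament regulators were higher in KO for all 7 members, with a median log2 fold change of 1.97. Cnn1, calponin 1 (chr9:22099216-22109630, plus strand), which restrains actomyosin, stood at 35.4 and 45.6 CPM in WT and at 391 and 105 CPM in KO. Its log2 fold change of 2.62, with a standard error of 0.73, was second to that of Actg2 and dropped to 1.38 without KO replicate 1. Synpo2, the actin-bundling synaptopodin 2, stood at 38.2 and 36.1 CPM in WT and at 201 and 121 CPM in KO (log2 fold change 2.12, standard error 0.37). Cald1, Smtn, Lmod1 and Nexn had log2 fold changes of 1.66, 1.77, 1.73 and 2.21, the last of which dropped to 1.17 without KO replicate 1.

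Tagln, transgelin, is abundant in smooth muscle yet was counted at 0.944 and 1.17 CPM in WT and at 5.67 and 2.61 CPM in KO (log2 fold change 1.97, or 1.30 without KO replicate 1). Of its exon bases, 67.9% overlap exons of Pcsk7 and Gm48529 on the other strand, where reads counted without strand would go to neither gene. The part of this overlap in its low level was not tested. The overlap with other genes was 23.7% for Pcp4 and 16.3% for Smtn, and under 10% for the other 29 members.

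Intermediate filament and anchoring genes were higher in KO for all 6 members. Des was at 70.4 and 110 CPM in WT and at 666 and 291 CPM in KO, with a log2 fold change of 2.40 and a standard error of 0.59. Synm, the large filament protein synemin, was at 28.3 and 23.8 CPM in WT and at 205 and 77.3 CPM in KO (log2 fold change 2.44, standard error 0.56). Neither gene's groups overlapped, and without KO replicate 1 the values dropped to 1.69 for Des and 1.57 for Synm. Flna, the actin crosslinker filamin A, Csrp1, a LIM protein, and the PDZ and LIM proteins Pdlim3 and Pdlim7 had log2 fold changes of 1.68, 1.92, 2.01 and 1.48. Csrp1 stood at 64.5 and 57.1 CPM in WT and at 366 and 94.9 CPM in KO, so without KO replicate 1 the value dropped to 0.65.

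In the kinase, phosphatase and calcium group, Mylk, myosin light chain kinase, stood at 207 and 311 CPM in WT and at 653 and 551 CPM in KO. Its log2 fold change of 1.22, with a standard error of 0.43, was below the median of the members. The phosphatase subunit Ppp1r12b was at 1.61 on the log2 scale and Ppp1r14a, which inhibits that phosphatase, at 1.44. For Ppp1r14a the KO replicate 2 value of 4.21 CPM was barely above WT replicate 2 at 4.02 CPM. Without KO replicate 1 the log2 values were 0.92 for Ppp1r12b and 0.44 for Ppp1r14a. Hspb6, a small heat shock protein, and Pcp4, a calmodulin partner, had log2 fold changes of 2.11 and 1.68.

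Channels and receptors were counted at lower levels. Kcnmb1 was at 1.20 and 1.29 CPM in WT and at 6.49 and 6.65 CPM in KO. Replicates of each genotype were nearly equal, and its log2 fold change was 2.40 with a standard error of 0.48. Its pore partner Kcnma1 was at 2.26 and 1.29 CPM in WT and at 7.28 and 3.41 CPM in KO (log2 fold change 1.59, or 0.94 without KO replicate 1).

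Cacna1c, the L-type calcium channel pore, stood at 3.63 and 1.52 CPM in WT and at 14.4 and 5.05 CPM in KO, with a standard error of 0.79 on a log2 fold change of 1.91. That value was 0.97 without KO replicate 1 and 2.67 without WT replicate 1. Chrm2, the M2 muscarinic receptor, stood at 7.78 and 9.17 CPM in WT and at 29.3 and 21.4 CPM in KO (log2 fold change 1.58, standard error 0.35). Chrm3, the M3 receptor through which acetylcholine contracts the gut, had the lowest fold change of the set. Its values were 2.15 and 0.859 CPM in WT and 3.14 and 2.16 CPM in KO, so WT replicate 1 and KO replicate 2 were all but equal (log2 fold change 0.82, standard error 0.70). Leaving out WT replicate 2 lowered that value to 0.29, while leaving out WT replicate 1 raised it to 1.62.

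Myocd, the myocardin cofactor, was near the limit of counting, with 0.458 and 0.156 CPM in WT and 1.40 and 0.441 CPM in KO, and its groups overlapped. Its log2 fold change was 1.56, with 0.51 without KO replicate 1 and 2.52 without WT replicate 1. The lowest count of any member in these libraries was 4.

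Genes of pacemaker cells stood at the low end. Kit, the receptor that marks interstitial cells of Cajal, was at 10.7 and 5.43 CPM in WT and at 24.9 and 9.54 CPM in KO, so WT replicate 1 lay above KO replicate 2. Ano1, the calcium-activated chloride channel behind slow waves, was at 7.55 and 9.37 CPM in WT and at 19.3 and 13.8 CPM in KO. Their log2 fold changes were 1.09 (0.24 without KO replicate 1) and 0.97, below the medians of 1.89 in the contractile filament and 1.96 in the anchoring group. Whether the groups of members differed from each other was not tested.

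**Figure D2:**
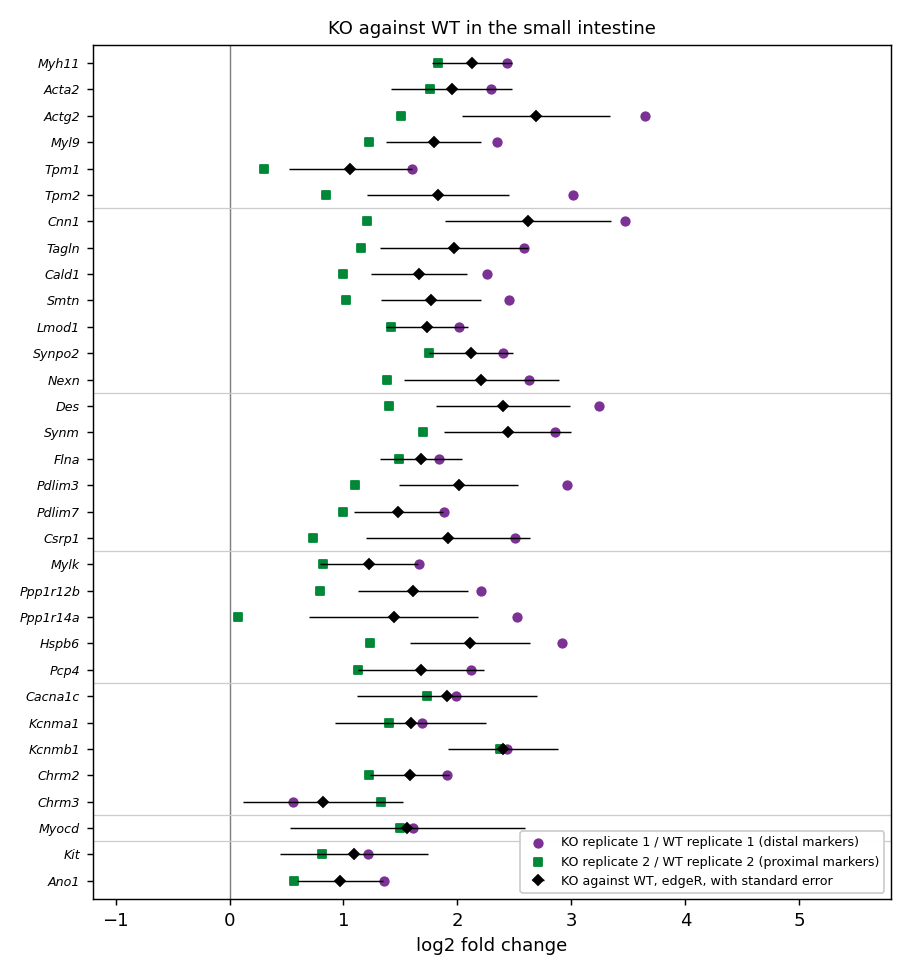
Log2 fold change of KO over WT in the small intestine for each member; diamonds with bars are the edgeR estimate and its standard error, purple circles KO replicate 1 over WT replicate 1 (distal markers), green squares KO replicate 2 over WT replicate 2 (proximal markers). Every symbol lies to the right of 0, and for most genes the distal pair lies to the right of the proximal pair.

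Within the distal-marker pair the members were 1.47 to 12.5 times higher in KO, with a median of 5. Within the proximal-marker pair they were 1.05 to 5.17 times higher, with a median of 2.33. KO replicate 1 exceeded KO replicate 2 for 30 of 32 members, by a median of 1.81 times, whereas the WT pair differed by a median of 0.843 (replicate 1 over replicate 2). Without KO replicate 1 the median log2 fold change of the members dropped to 1.29, and without KO replicate 2 it was 2.07. For 30 members the lack of overlap fixed in advance a value above 0 when any 1 library was left out. Kit and Myocd, whose groups overlapped, also stayed above 0. The smallest value of any member with 1 library left out was 0.24, for Kit without KO replicate 1.

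KO replicate 1 also carried transcripts of heart muscle. The cardiomyocyte list summed to 431 CPM in KO replicate 1, against 17.4, 26.6 and 34.6 CPM in WT replicates 1 and 2 and KO replicate 2. Its most abundant gene there, Myl2, the ventricular light chain, was at 160 CPM against 0.972, 2.19 and 1.64 CPM. In unscaled CPM, 9 of 10 cardiomyocyte genes were highest in KO replicate 1, at 0.394% to 0.749% of their mean in the heart libraries, with a median of 0.621% over all 10. The other gene, Myl7, was at 5.65 CPM in KO replicate 1 and at 8.72, 5.88 and 4.81 CPM in the rest.

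If every heart transcript were present at 0.621% of its heart level, that amount would equal 24.9% of the KO replicate 1 level of Nexn, 15.8% of Myocd, 9.27% of Tpm1, 9.16% of Cacna1c and 6.39% of Hspb6, and under 5% of each of the other 27 members. This calculation was chosen after the values were seen, and where the transcripts came from was not tested.

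Other gene lists give the setting of these values. Of 26 further smooth muscle genes, 24 were tested, all 24 had a higher mean in KO and 0 were called by edgeR, with a median log2 fold change of 1.34. An unadjusted p under 0.05 was reached by 12 of them. Jph2, a junctional membrane protein, had 2.35 and Tns1, tensin 1, 2.24; Mrvi1, which mediates relaxation by cGMP, had 1.95. Genes of contraction signalling and calcium handling were split, 19 higher and 7 lower, around a median of 0.41. Its largest value, 2.72 for phospholamban (Pln), came from 20.9 CPM in KO replicate 1, against 2.41 CPM in KO replicate 2. The serum response factor pathway, with 13 genes tested, had 7 higher and 6 lower and a median of 0.11. At an unadjusted p under 0.05 these lists held 4 and 1 genes. The 8 further genes of interstitial cells had a median of 0.57, led by the potassium channel Kcnn3 at 2.31.

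Nerve and connective tissue lists held no called gene. Of 15 tested genes of enteric neurons, 14 had a higher mean, with a median log2 fold change of 1.46, and 5 had an unadjusted p under 0.05. Their summed level was 64.2, 21, 82.5 and 49 CPM in WT replicates 1 and 2 and KO replicates 1 and 2; the neuropeptide gene Tac1 gave 41.2 CPM of the sum in WT replicate 1. Chat, which makes acetylcholine, had a log2 fold change of 2.64. All 5 tested glial genes were higher, with a median of 1.29, although the sum of the list was nearly all Erbb3.

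Pericyte genes summed to 194 and 229 CPM in WT and to 645 and 594 CPM in KO, mostly from Rgs5, which smooth muscle also expresses. Fibroblast genes summed to 283 and 253 CPM in WT and to 437 and 453 CPM in KO, and mesothelial genes to 59.4 and 39.5 against 94.2 and 72.9 CPM. The part that the amount of muscle wall or attached tissue in each sample had in the members' values was not tested.

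Epithelial genes summed to 18200 and 16300 CPM in WT and to 19700 and 15000 CPM in KO, with Lgals4 the most abundant and a median log2 fold change of 0.04. Endothelial genes were at 21.1, 29.5, 17.6 and 86 CPM in WT replicates 1 and 2 and KO replicates 1 and 2. All 7 had a higher mean in KO (median 1.17 on the log2 scale), and the low sum in KO replicate 1 came with Pecam1 at 2.5 CPM there against 10.7 CPM in WT replicate 1. Leukocyte genes were at 437, 144, 83.9 and 165 CPM in the same order, highest in WT replicate 1, with Ptprc the most abundant gene.

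Skeletal muscle genes summed to 12.3, 11.5, 31 and 14.9 CPM, highest in KO replicate 1, with 3 of 10 at 0 in all 4 libraries. Hepatocyte genes, nearly all Apoa1 (3980, 8720, 6360 and 13900 CPM), were higher in the proximal-marker libraries, and so was the adipocyte sum (32.6, 163, 33.8 and 158 CPM) through Cidec. The adipocyte gene Adipoq ran the other way, at 12.5, 0.0781, 8.41 and 0 CPM. Pancreatic genes summed to 23.7 to 32.8 CPM and mast cell genes to 3.66 to 12.5 CPM. Immediate early genes summed to 489, 704, 474 and 497 CPM. No gene of any of these lists was called by edgeR; DESeq2 called 4 cardiomyocyte genes (Myh6, Myl2, Actc1 and Myl3), the further smooth muscle gene Tns1 and the skeletal muscle gene Ckm.

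Genes whose level followed the members most closely were sought among 8924 others above 10 CPM in WT small intestine, as a description over 4 libraries. Pearson's r with the mean log2 level of the members was 0.9999 for Atp2b4, a plasma membrane calcium pump, 0.9982 for Tns1 and 0.9976 for Cavin1, a caveolar coat protein. Mllt1, Pdzk1, Ext2, Zscan26 and Rgmb completed the highest 8. With so many genes and 4 points that share libraries, high values of r arise easily. Of these, Tns1 had the widest gap, from 14.9 and 14.6 CPM in WT to 96.1 and 43 CPM in KO, and Atp2b4 went from 11.6 and 12.7 to 43.8 and 26 CPM. Over all 20 libraries the highest r were 0.9486 for Ahnak, 0.9403 for Pde3a and 0.9328 for Nbl1, followed by Camk2d, Ankrd50, Fblim1, Kitl and Gdpd5.

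In the other tissues the members' fold changes of KO over WT lay on both sides of 0, with more of them lower in spleen. The test passed over members with low counts, leaving 21 in liver, 30 in spleen, 28 in kidney and 29 in heart. The median log2 fold changes were 0.10, -0.17, -0.02 and 0.01, against 0, 0.01, -0.03 and -0.01 over all genes. Both KO libraries lay above both WT libraries for 3, 2, 1 and 4 tested members in the same order. Both lay below for 3, 8, 1 and 2. The share of all genes without overlap was not taken in these tissues. None was called by edgeR in any of the 4 tissues, where 0.0509% of all genes were called in liver, 0.223% in spleen, 0% in kidney and 0% in heart. At an unadjusted p under 0.05, 0 members passed in each of these tissues by edgeR, where 4.7% of all genes passed in liver, 5.14% in spleen, 0.638% in kidney and 0.703% in heart. DESeq2 also passed 0 members, where 2.64%, 3.4%, 0.473% and 0.59% of all genes passed in the same order. Leaving out WT replicate 1 in kidney gave 4 members called higher and 1 lower (Ppp1r12b, Lmod1, Cacna1c, Smtn and Pdlim7), where 16.1% of all genes were called, and leaving out WT replicate 2 gave 1 (Acta2), where 2.37% were.

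**Figure D3:**
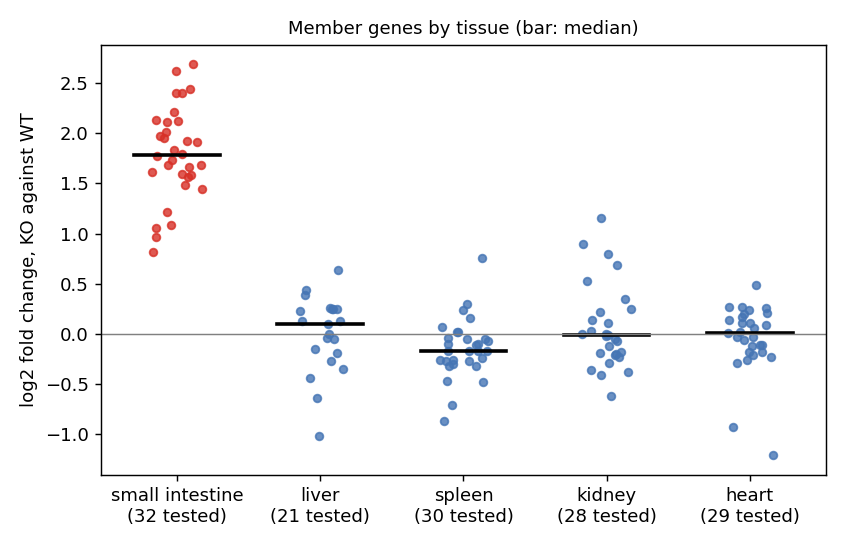
Log2 fold change of KO over WT for every member tested in each tissue; each point is 1 gene, spread sideways at random, and the bar is the median. All 32 points lie above 0 in the small intestine, with a median of 1.78, and on both sides of 0 in the other tissues.

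The extremes of each tissue are given as log2 fold changes. In liver, Cacna1c had -1.02, at 0.307 and 0.489 CPM in WT and 0.0644 and 0.306 CPM in KO, and Pdlim7 had -0.64; Ppp1r14a had 0.64 and Synpo2 0.44. In spleen, 7 members were higher and 23 lower, a split that was not taken over all genes. Values there ran from -0.87 for Chrm3 and -0.71 for Actg2 to 0.30 for Lmod1 and 0.76 for Chrm2. Actg2 in spleen stood at 12.1 and 12.5 CPM in WT and at 10.5 and 4.55 CPM in KO, so KO replicate 2 was low.

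In kidney, Chrm3 was at 0.769 and 1.58 CPM in WT and at 2.33 and 2.91 CPM in KO, the highest member with a log2 fold change of 1.16 and a standard error of 0.61. Tagln had 0.90, Ppp1r14a -0.41 and Lmod1 -0.62. In heart, Lmod1 had -1.21, with 1.64 and 5.18 CPM in WT and 0.697 and 2.16 CPM in KO, so its groups overlapped. Kit had -0.93, with both KO libraries below both WT libraries, Ppp1r14a 0.49, and Cacna1c and Acta2 0.27 each. None of these differences was called.

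Whether the KO effect in the small intestine differed from its mean in the other 4 tissues was tested in 1 edgeR fit over all 20 libraries. The difference was above 0 for the 30 members with a usable standard error, with a median of 1.98 on the log2 scale, against 0.04 over all genes. No member was called, while 0.00432% of all genes were; 25 members had an unadjusted p under 0.05 with the intestine higher, against 3.45% of all genes. Synpo2 had the lowest adjusted p (0.164, edgeR quasi-likelihood test), with a difference of 2.06 and a standard error of 0.36. The largest differences were 3.04 for Cnn1 (standard error 0.88) and 2.95 for Actg2 (standard error 1.09). For the other members, Kcnmb1 and Myocd, which had no counts in some groups, the standard error was too large for the estimate to be used. Pcp4, at 0 in both KO liver libraries, and Chrm2, at 0 in both KO kidney libraries, were kept among the 30. DESeq2 called 14 members, against 1.11% of all genes. Without KO replicate 2 of the small intestine edgeR called 9, against 1.03% of all genes, and without its WT replicate 2 it called Tpm2 alone, against 0.0645%.

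Where else the members are expressed was asked in TPM, a transcript level that scales counts by exon length and library and so allow genes to be compared. In WT, 13 members were highest in heart, 11 in small intestine, 6 in spleen and 1 each in liver and kidney. In KO, 20 were highest in small intestine, 10 in heart and 2 in spleen. These counts rank means even where organs overlap, as for Lmod1, Chrm3 and Ano1 in WT. They were not taken over all genes, so they cannot be read as particular to the members. The median level over the 32 members was 5.15 and 6.48 TPM in WT small intestine and 40.2 and 16.85 TPM in KO small intestine. It was 9.25 and 9.8 TPM in WT spleen, 11.55 and 19.55 TPM in WT heart, 3.56 and 1.68 TPM in WT kidney and 0.76 and 0.66 TPM in WT liver.

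**Figure D4:**
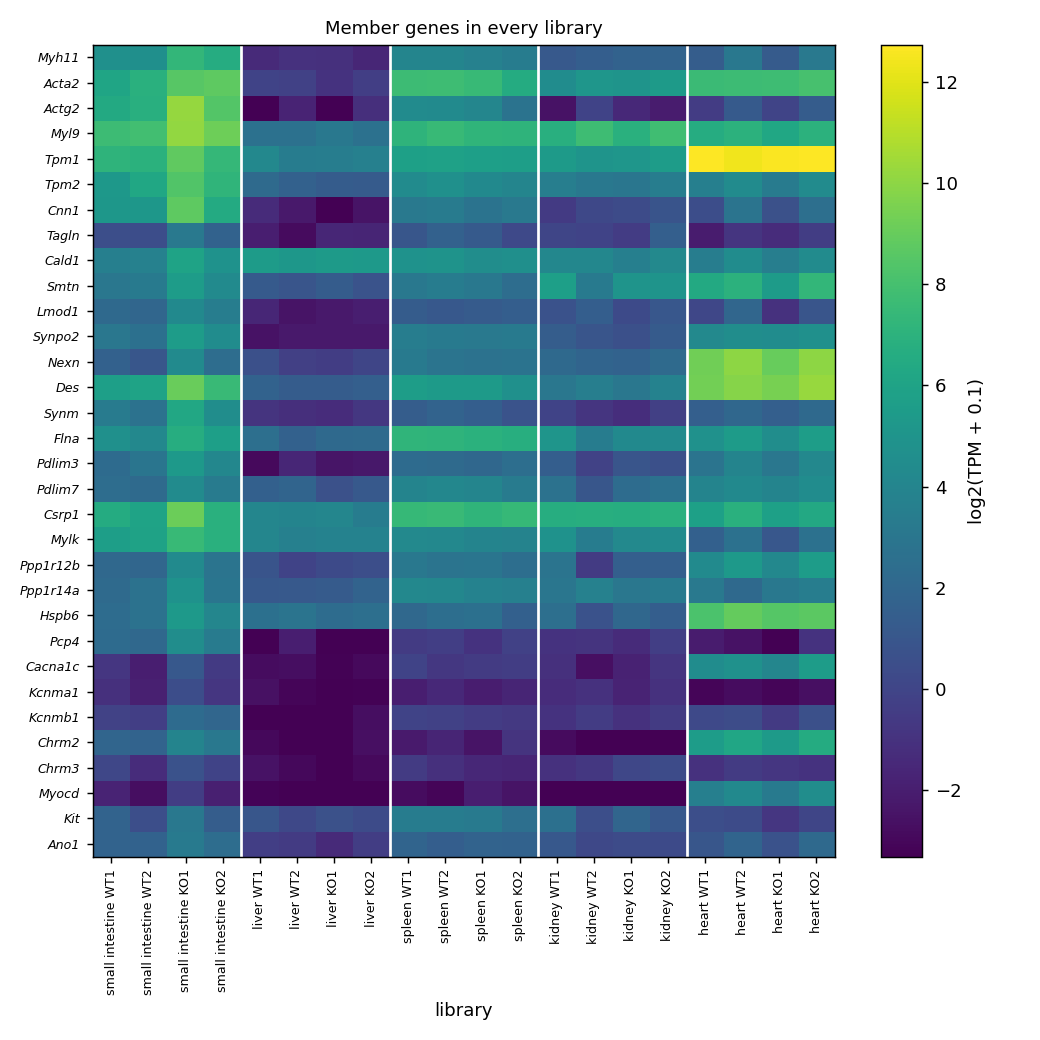
Level of the 32 members in all 20 libraries as log2(TPM + 0.1), with a colour scale from dark (low) to bright (high); rows are genes by functional group and columns are libraries by tissue. Tpm1, Des and Nexn are brightest in heart, and the liver columns are the darkest.

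Myosin and gut actin were highest in the intestine. Myh11 averaged 26.1 ± 0.641 TPM in WT small intestine (SD, n = 2), followed by spleen at 16 ± 0.117 TPM, heart at 5.57 ± 4.30 TPM, kidney at 2.40 ± 0.349 TPM and liver at 0.334 ± 0.0786 TPM. Only heart and kidney overlapped in that order. Actg2 was at 100 ± 18.7 TPM in WT small intestine and at 21.2 ± 0.437 TPM in spleen, above heart, kidney and liver, where each overlapped its neighbour in the order. Cnn1 stood at 36.8 ± 0.219 TPM in WT small intestine and fell in the order spleen (9.51), heart (4.18), kidney (0.794) and liver (0.202), none of which overlapped its neighbour.

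Acta2, in contrast, was at 212 ± 10.8 TPM in WT spleen and 201 ± 9.86 TPM in WT heart, which overlapped, and at 93.9 ± 33.4 TPM in WT small intestine. Kidney was at 28.4 and liver at 0.793 TPM. Myl9 averaged 217 ± 19.1 TPM in WT small intestine, 162 in spleen, 161 in kidney, 112 in heart and 6.30 in liver, and kidney, at 111 and 212 TPM, overlapped with small intestine, spleen and heart. Mylk was highest in WT small intestine at 56.7 ± 6.53 TPM and lowest in heart at 4.59 ± 2.26 TPM; Synm was also highest in the intestine, at 8.38 ± 2.46 TPM. Tagln, with the exon overlap described, was at 2.51 TPM in WT spleen and 1.33 TPM in WT small intestine.

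Members that heart muscle also uses were highest there. Tpm1 averaged 6030 ± 767 TPM in WT heart against 131 ± 12.4 TPM in WT small intestine, and Des 788 ± 190 TPM against 59.2 ± 8.41 TPM. Nexn, a nexilin of the cardiac Z disc, averaged 816 TPM in WT heart, and Hspb6 390 TPM. Cacna1c was at 24.8 ± 3.93 TPM in WT heart against 0.313 ± 0.224 TPM in WT small intestine. Myocd was at 15.9 ± 5.42 TPM against 0.128 ± 0.105 TPM, and it was listed at 0 in all kidney libraries. Chrm2, the receptor that slows the heart, was at 58.9 ± 17.6 TPM there against 3.64 and 3.36 TPM in the WT small intestine libraries.

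The remaining channels and pacemaker genes were weaker. Kcnma1 was at 0.353 TPM in WT kidney and 0.273 TPM in WT small intestine, which overlapped, and small intestine overlapped with spleen at 0.206 TPM. Kcnmb1 was at 1.16 TPM in WT heart, 0.798 in spleen and 0.747 in small intestine, the latter pair overlapping. Chrm3 lay between 0.447 and 0.639 TPM in WT kidney, spleen, heart and small intestine, each overlapping the next. Kit was at 10.8 ± 0.026 TPM in WT spleen, above all other tissues, and at 2.38 ± 1.46 TPM in WT small intestine. Ano1 was at 3.34 ± 0.0715 TPM in WT small intestine and overlapped with spleen at 3.06 TPM and heart at 2.67 TPM.

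Tests of WT small intestine against each organ were made in 1 edgeR fit of the 10 WT libraries. Against liver, 25 members were called higher and 1 lower, where 19.9% of all 21742 genes tested were called higher and 16% lower. Against spleen, 10 were called higher (18.6% of all genes) and 3 lower (17% of all genes). Against kidney, 15 were called higher (17.2% of all genes) and 1 lower (18.6% of all genes). The lower call was lost with the replicate number as a block, with all 20 libraries and at an adjusted p under 0.05. Against heart, 9 were called higher (22.2% of all genes) and 11 lower (22% of all genes). Some of the higher calls against heart were lost without heart replicate 1, as named below. Leaving out spleen replicate 1 or 2 cut the 13 calls against spleen to 4 and 5, where 18.3% and 17.8% of all genes were called.

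Against liver the log2 fold change was 7.01 for Cnn1, 6.40 for Acta2, and 5.72 for both Myh11 (standard error 0.66, edgeR adjusted p = 0.000529) and Synpo2. The estimates for Actg2, Kcnmb1 and Chrm2 were higher but rest on a liver library at 0. Cald1, caldesmon, was the member called lower in the intestine, with a log2 fold change of -2.20 (edgeR adjusted p = 0.00363). Against spleen, Mylk had 2.34, Synm 2.18 and Cnn1 2.65, while Flna (-2.01), Kit (-1.56) and Nexn (-1.11) were lower. Against kidney, Cnn1 had 5.57, Synm 3.89 and Myh11 3.53, and Smtn was lower at -1.40. Smtn stood at 71.5 and 20.7 CPM in WT kidney, and its call was lost with the replicate number as a block.

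Against heart, the members called higher were Actg2 (6.17), Pcp4 (5.42), Mylk (3.70), Cnn1 (3.25), Kcnma1 (3.06), Myh11 (2.32), Tagln (2.13), Tpm2 (1.86) and Synm (1.30), as log2 fold changes. The calls of Kcnma1, Tagln, Tpm2 and Synm were lost when heart replicate 1 was left out. Those called lower were led by Nexn (-8.35), Myocd (-6.96), Cacna1c (-6.37), Hspb6 (-6.02) and Tpm1 (-5.54), with Chrm2 at -4.04 and Des at -3.68.

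With the KO libraries of every organ in place of the WT libraries, 31 members were called higher against liver (24.4% of all genes), 28 against spleen (23.9%), 28 against kidney (20.1%) and 18 against heart (25.4%). In these fits 9 members were called lower against heart (24% of all genes) and 0 against liver (18.2%), spleen (22.4%) and kidney (19.8%). With library size alone as the scale, chosen after the data were seen, the median of all genes against spleen shifted by -0.63 on the log2 scale and the split of members became 8 higher (12.6% of all genes) and 8 lower (27.7% of all genes). The shift was 0.53 against liver and -0.16 against kidney, and 0.12 against kidney with relative log expression (RLE) factors.

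Ratios between paired members, and of Myh11 to Myh9, which is not a member, do not depend on library scaling. They were compared between the 4 libraries of small intestine and the 4 of each other organ, genotypes together. The comparison treats WT and KO libraries of an organ as alike, although the genotypes did not overlap for Myh11/Myh9 in the intestine. It also treats organs as independent, and whether they share animals is not stated. The ratio was taken per exon base after adding 0.5 to each count. Of 32 comparisons of 8 ratios, 22 had groups without overlap, which gives p = 0.0286 in a two-sided exact permutation test, the smallest value it can give (adjusted p = 0.0416 over the 32). The same count was not taken over pairs of other genes. Between the WT organs 16% to 22.2% of all genes were called in each direction, so the count of 22 cannot be read as particular to the members.

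The Actg2/Acta2 ratio, which sets gut-type against vessel-type actin, was 1.24 and 0.965 in WT intestine and 3.15 and 0.805 in KO intestine. It was between 0.0735 and 0.106 in spleen, between 0.00375 and 0.0244 in kidney and between 0.00342 and 0.0111 in heart, where Actg2 counts fell to 1 in kidney and to 7 in heart. On the log2 scale the intestine averaged 0.40 ± 0.88 (SD, n = 4) and exceeded spleen by 3.86, without overlap. KO replicate 1 was the highest of the intestine libraries.

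Myh11/Myh9, smooth muscle against nonmuscle myosin, was 1.12 and 1.28 in WT intestine and 5.09 and 5.60 in KO intestine, so the genotypes did not overlap. In every other organ the ratio was below 0.5, and the intestine lay above each of the 4 organs without overlap, by 2.84 on the log2 scale against heart and 2.95 against spleen. With WT libraries alone these differences were 1.74 and 1.73, and with KO libraries alone 3.95 and 4.16. Tpm2/Tpm1 was 0.267 and 0.621 in WT intestine and 0.711 and 0.906 in KO intestine, and between 0.00161 and 0.00392 in heart, where Tpm1 dominates. It overlapped with liver, spleen and kidney.

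Among receptors and channels, Chrm2/Chrm3 was 3.73 and 10.8 in WT intestine and 9.57 and 10.1 in KO intestine, against 88.4 to 227 in heart and 0.224 to 1.97 in spleen. Intestine lay below heart by 4.01 and above spleen by 3.85 on the log2 scale, without overlap. Kcnmb1/Kcnma1 was 2.17 and 4.05 in WT intestine and 3.61 and 7.89 in KO intestine, above kidney at 1.32 to 2 and below heart at 24.2 to 54.3, where Kcnma1 counts fell to 2. It overlapped with spleen and liver.

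Mylk/Ppp1r12b, kinase against a phosphatase subunit, was 8.63 to 16.3 in intestine, 1.97 to 2.69 in spleen and 0.112 to 0.149 in heart, and overlapped with liver and kidney. Des/Synm was 5.26 to 9.79 in intestine, 13 to 19 in spleen and 231 to 280 in heart, and overlapped with liver and kidney. Ano1/Kit was 0.993 to 2.43 in intestine and 0.246 to 0.537 in spleen, and was higher in intestine than in liver, spleen and kidney without overlap; heart overlapped.

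**Figure D5:**
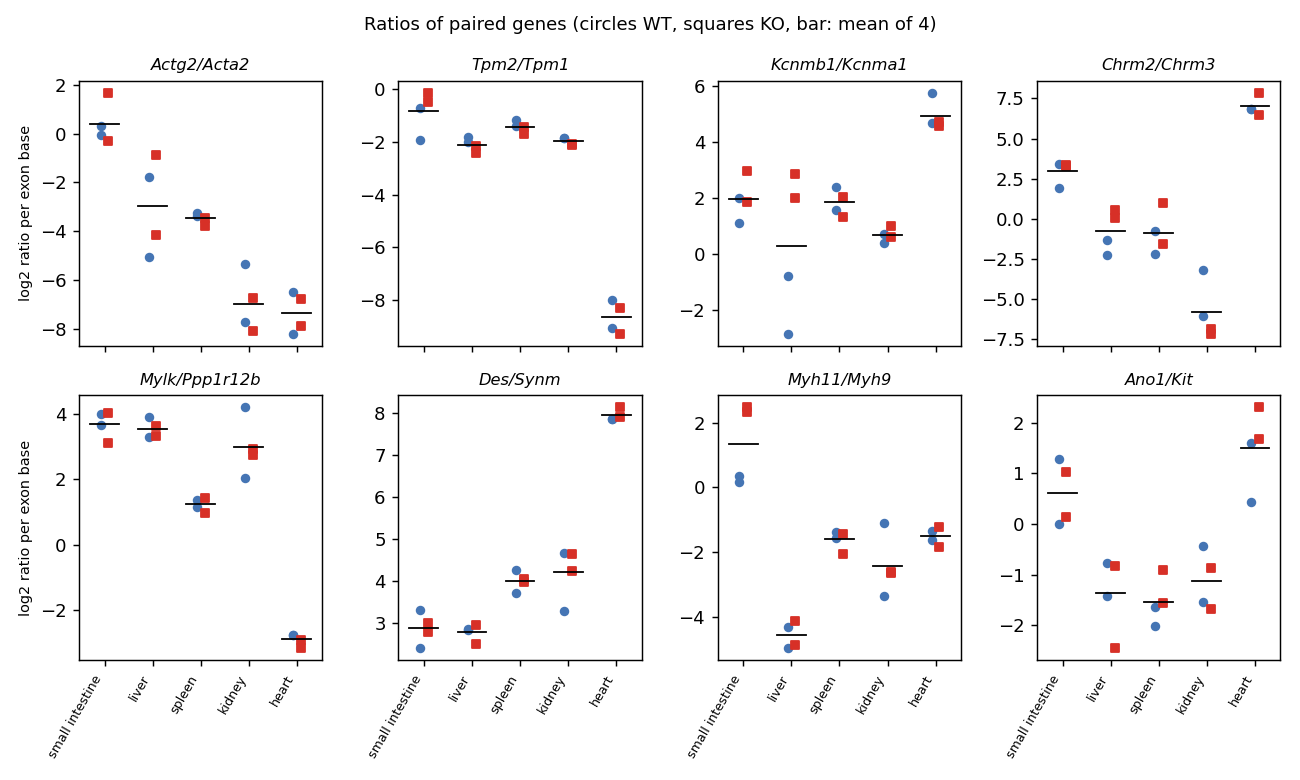
Log2 ratio of 8 gene pairs in every library, per exon base with 0.5 added to each count; circles are WT, squares KO, and bars the mean of 4 libraries. Actg2/Acta2 and Myh11/Myh9 lie higher in small intestine than in every other organ, and Myh11/Myh9 parts KO from WT in the intestine.

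Levels of the members relative to one another changed little between the intestine libraries for some genes and more for others. On the log2 scale and relative to the median member of each library, Myl9 spanned 0.26 over the 4 libraries, Cald1 0.29 and Tagln 0.36. Myocd spanned 2.17, Chrm3 1.99, Cacna1c 1.88 and Kit 1.86, the first 2 being among the members with the lowest counts. Tpm1 stood 4.79 and 4.33 above the median member in WT and 3.85 and 3.57 in KO, and Mylk 4.16 and 4.13 in WT and 3.27 and 3.89 in KO.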

How the data were processed

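Stranded mRNA-seq libraries came from whole tissues. The authors trimmed reads with cutadapt, mapped them with HISAT2 (2.1.0) to mm10, per the labels, and counted exon reads with featureCounts (2.0.1) on the GRCm38.102 annotation. The deposited values are raw read counts per gene, with exon length. The kit was stranded and the methods give strand and pair options, but the command stored with the counts has none. The counts were treated as unstranded single reads, so a low count can stand for fewer read pairs. Even values made up 54.9% to 59.8% of the counts from 10 to 50 in each library. Overlapping genes can be undercounted without strand, and the size of that was not tested.

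Members, gene lists and tests were chosen with earlier results of these data known. Members described in full were fixed core genes plus the 3 highest and 3 lowest fold changes; in other tissues, the 2 highest and 2 lowest. Counts were fitted with edgeR 4.0.16 (TMM, filterByExpr, robust quasi-likelihood test, Benjamini-Hochberg over all genes) in R 4.3.3, per tissue. DESeq2 1.42.0, limma 3.58.1 on log2(TPM + 0.1), other scalings and filters, and left-out libraries were alternatives. Standard errors are the fold change over the root of F. Scripts were tested on simulated data, where edgeR did not recover changes near the members' median fold in the small intestine with these libraries, so a count of 0 there does not show that levels were alike.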

Additional observations from a re-analysis of the deposited data

Results flagged for a closer look

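In 40 groups of 4 libraries (8 ratios in 5 tissues), 2 had 1 library farther from the rest than Dixon's 95% limit allows; chance alone passes that limit in about 1 group in 20. The log2 ratio of Chrm2 to Chrm3 in WT replicate 1 of small intestine was 1.90, against 3.26, 3.34 and 3.43 in the others. The log2 ratio of Kcnmb1 to Kcnma1 in WT replicate 1 of heart was 5.76, against 4.59, 4.70 and 4.74, with Kcnma1 counts down to 2 in heart.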

How the results depend on the processing

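For the 18 members described in full, 162 alternative fold changes in the small intestine were all above 0 and ran from 0.24 to 3.24. For members whose groups did not overlap, the sign was fixed in advance in fits that left out a library. The limma fit and the other low-count filters were compared by counts of calls only. DESeq2 called 6 members there in place of 0, and put Myh11, Actg2, Des, Kcnmb1 and Synm past the threshold with log2 fold changes of 2.12, 2.68, 2.39, 2.39 and 2.43; leaving out 1 library at a time gave 0 throughout, which says nothing about stability at the spread of these libraries. For the difference of KO effects, DESeq2 called 14 in place of 0, and leaving out 1 intestine library gave 0 to 9 (9 without KO replicate 2 and 1 without WT replicate 2). In kidney, leaving out 1 library gave 0 to 5 calls: 5 without WT replicate 1 and 1 without WT replicate 2. Against spleen, 13 calls became 8 at an adjusted p under 0.05 (27.1% of all genes), 28 with KO libraries and 21 with all 20 libraries (51.4% of all genes); leaving out 1 library gave 4 to 13, with 4 without spleen replicate 1 and 5 without spleen replicate 2. Against kidney, KO libraries of both organs gave 28 calls in place of 16, and leaving out 1 library gave 12 to 18. The cause of these shifts was not tested. A fit that leaves 1 library in a group assumes that it varies like the others. With the replicate number as a block, 0 members were called in any KO comparison and the median in the small intestine was 1.73. With 2 pairs a tissue the numbers are not shown to pair animals: deviations of same-numbered libraries correlated at 0.481 in small intestine, 0.248 in heart and 0.012 to 0.073 in the rest, across genes. Of 96 alternative ratio differences, 18 moved by over 1 SD and 0 reversed a called direction. The low-count filter, RLE factors, thresholds, limma and the pseudocount of 2 in the ratios moved no other count by over 1.5 times. Depth limits Myocd, counted down to 4 in the small intestine.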
